A study of Mus musculus with 6 samples.

Results

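Transcripts of the semaphorins and of their receptors, the plexins and neuropilins, were examined in bulk RNA-Seq of the ductus arteriosus (DA), the fetal vessel that joins the pulmonary artery to the aorta. The members were all rows of the expression table whose symbol is that of a semaphorin of class 3 to 7, a plexin or a neuropilin. These were 31 of 23997 genes, with 20 semaphorins, 9 plexins and 2 neuropilins. The DA was taken at E17.5 from C57BL/6 mouse embryos, with 3 libraries of wild type embryos (WT 0, WT 1 and WT 2) and 3 of the genotype Prdm6f/f; SM22-Cre (KO 0, KO 1 and KO 2). In the latter, *Prdm6*, a gene of the PRDM family of transcriptional regulators, is floxed and Cre-recombinase is expressed in smooth muscle cells (SMCs) by the *SM22-Cre* transgene. No embryo was treated. The study describes its controls as littermates. The sources used here do not state how many embryos made up a library, whether each library was a separate embryo or whether the WT embryos carried Cre or a floxed allele, so p values measure the spread between these libraries. The FPKM of *Prdm6* itself was 41.7, 48.4 and 19.8 in WT and 48.6, 27.1 and 15.4 in KO, which overlap. By qRT-PCR, the study reports lower *Prdm6* in the DA and aorta of its *SM22-Cre* knockouts. Whether the FPKM of the whole gene reflects the deletion was not tested.

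Semaphorins are secreted or membrane-bound guidance proteins, first known from growing axons and later from vessels and the heart. Class 3 semaphorins are secreted and most of them bind a neuropilin, which in turn joins a plexin that carries the signal into the cell, where the plexin acts on small GTPases and the cytoskeleton. The membrane-bound classes bind plexins directly. Semaphorin 3C guides cardiac neural crest cells to the outflow tract, and loss of *Sema3c* or of its receptor gene *Plxnd1* in mice leads to defects of the outflow tract and of the aortic arch arteries, from one of which the DA derives. SMCs of the DA media come largely from the cardiac neural crest.

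FPKM is a level of fragments scaled by transcript length and by the size of the library, so members can be compared with each other. How library size was set for these values is not given in the sources used here. Depth per library is unknown. The upper quartile was 10.4 to 10.8 FPKM per library, and the number of genes listed at 0 lay between 8338 in KO 2 and 11886 in WT 2. Of 3506 genes whose mean reached 20 FPKM, 34 to 61 per library were listed at 0, and a value of 0 may therefore be an estimate that failed. KO 0 held both *Xist* (81.0 FPKM) and the Y chromosome transcript *Ddx3y* (26.4 FPKM), whereas each other library held at most 0.383 FPKM of one of the pair. SMC markers were present in all libraries, with 0 of 12 at 0. Their summed FPKM lay from 2833 to 6182 in WT and from 991 to 2520 in KO. All 12 had a lower mean log2 level in KO. The groups of 7 of them did not overlap, against 7.84% of all genes tested that were lower without overlap. Schwann cell markers had higher sums in KO. These were 25.9, 34.4 and 53.5 FPKM in WT and 60.5, 144 and 214 in KO, with 11 of 12 tested genes higher in KO. Among these markers, *Fabp7* and *Egr2* were at 0 in WT 0, *Gfra3* in WT 1, *Foxd3*, *Egr2* and *Gfra3* in WT 2, and *S100b* and *Egr2* in KO 1. Neuron markers summed to between 27.96 and 41.4 FPKM in WT and between 65.6 and 93.4 in KO, with 8 of 9 tested genes higher. Between 2 and 7 of the 14 neuron markers were at 0 in each WT library, and between 0 and 4 in each KO library, with *Th* at 0 in all 3 WT libraries. Erythroid markers summed to between 3874 and 7587 FPKM in WT and between 4304 and 24390 in KO. Of the tested genes 8 of 8 were higher, with a median log2 fold change of 1.52. For 2 of them the groups did not overlap, against 8.21% of all genes tested that were higher without overlap. One of these, *Epb42*, had a mean of 0.81 FPKM in WT and 3.38 in KO, so it was tested only because of its KO values. Between 1 and 5 of the 11 erythroid markers were at 0 per library, with *Hba-a2* at 0 in all 6. In bulk tissue, fewer cells of a type and less RNA per cell cannot be told apart.

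The levels of the 31 members spanned a wide range. The means over the 6 libraries ran from 102 FPKM for *Nrp1* to 0.223 FPKM for *Sema4f*, and 15 members stayed above 5 FPKM in every library. Each kind of protein had 1 leading gene. *Sema3c* was the highest semaphorin, *Plxnb2* the highest plexin and *Nrp1* the higher neuropilin in 6 of 6 libraries. *Nrp1*, *Sema3c* and *Plxnb2* (mean 58.1 FPKM) had the highest means. The range of *Sema3c* still reached into that of lower genes, since its value of 42.3 FPKM in WT 1 was below 45.1 for *Plxnd1* in KO 2. The lowest value of *Plxnb2*, 47.9 FPKM in WT 0, exceeded the highest value of the fourth gene, *Sema3d*, at 42.1 FPKM in KO 2. Of the 30 pairs of neighbours in the order of means, this was the only 1 whose ranges did not overlap, so other neighbours in the order did not differ beyond their spread. *Sema4a*, *Sema4f* and *Sema6b* had a mean under 1 FPKM and were left out of the test.

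**Figure D1:**
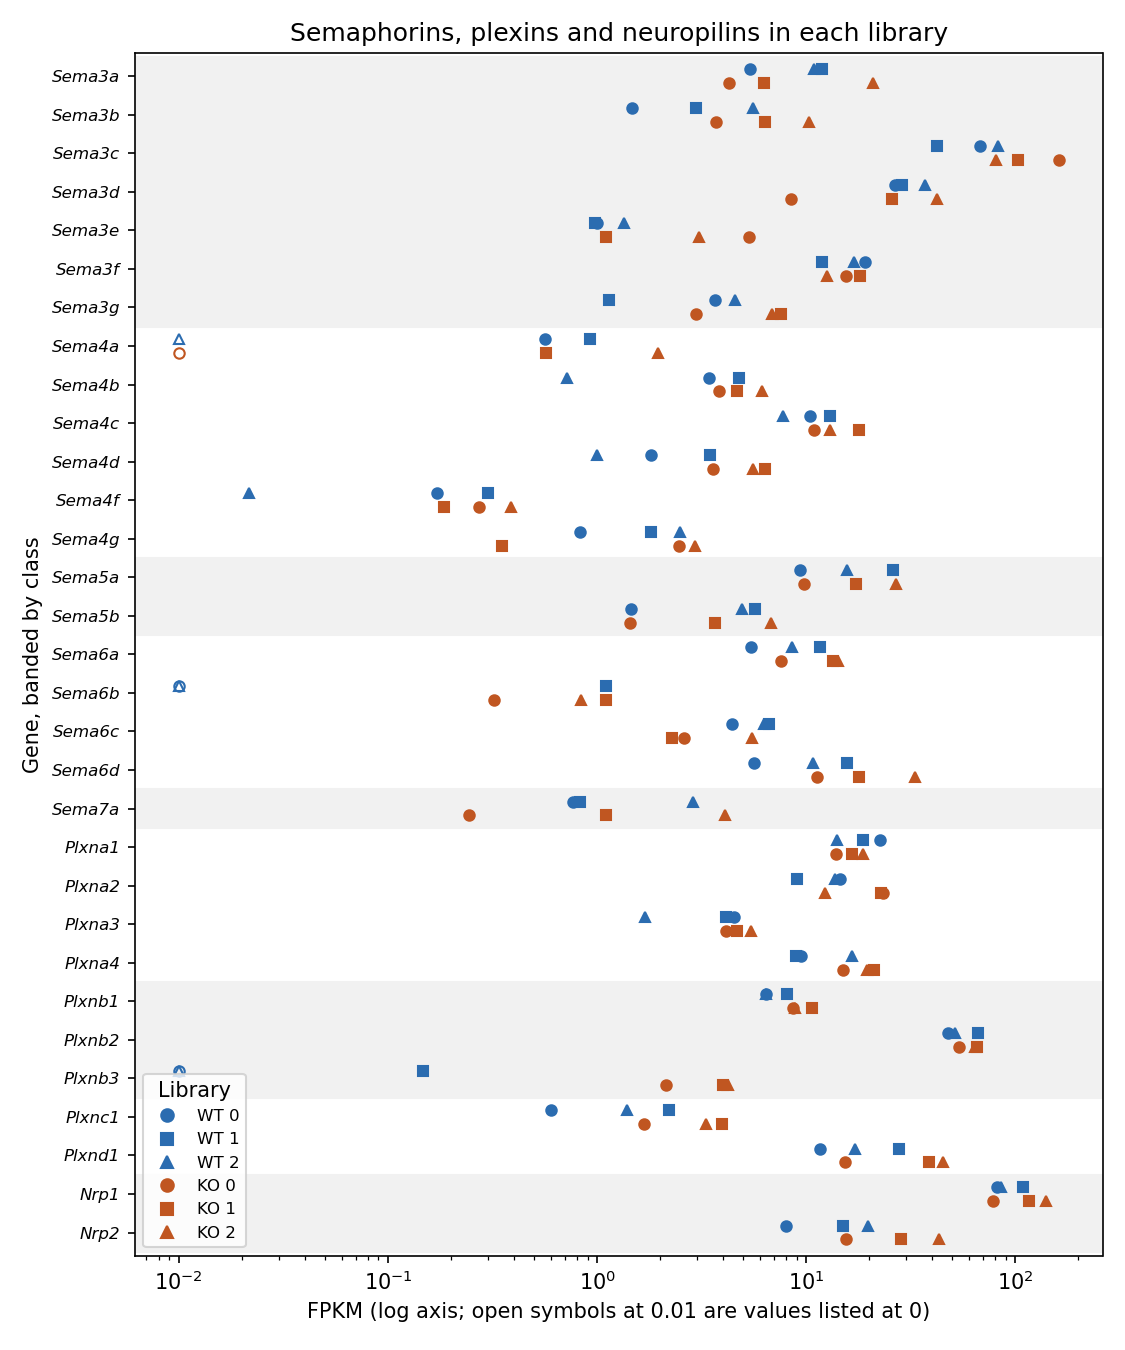
FPKM of the 31 members (rows, banded by class) on a log axis, with 1 symbol per library, WT in blue and KO in orange. Open symbols at the left edge are values listed at 0, for *Sema4a*, *Sema6b* and *Plxnb3*, and the 3 genes with the highest means are *Nrp1*, *Sema3c* and *Plxnb2*.

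The libraries labelled KO were then compared with those labelled WT. The difference was tested with limma on log2(FPKM + 0.1) over the 12955 genes whose mean reached 1 FPKM, and 28 members entered. Here a log2 fold change is the mean of KO minus that of WT on this scale, and the added 0.1 makes it smaller for genes of low level. None of the 28 members passed (0 with a Benjamini-Hochberg adjusted p under 0.05 in limma, the lowest being 0.500 for *Plxnb3*). The test called 0.00772% of all genes, which was 1 gene. An unadjusted p under 0.05 was reached by 2 members, *Plxnb3* and *Sema3c*, against 8.28% of all genes. Both were higher in KO, as were 3.31% of all genes, while 4.97% of all genes were lower at this level. The groups did not overlap for 3 members, *Sema4d*, *Plxnb1* and *Plxnb3*, against 16.1% of all genes. In all 3 the KO libraries were higher, against 8.21% of all genes in that direction and 7.84% in the other. *Plxnb3* reached the mean of 1 FPKM through the KO libraries alone, so its place in these counts follows in part from the filter. Of the 27 members whose mean reached 1 FPKM in both groups, 1 had an unadjusted p under 0.05 and 2 did not overlap, against 8.02% and 15.4% of the 12095 genes of that kind. The counts of single members were thus near the background.

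The sign of the difference leaned one way. Of the 28 members tested, 20 had a positive log2 fold change and 8 a negative one, or 71.4% higher, where 55.6% of all genes were higher. The median log2 fold change was 0.51 over the members and 0.07 over all genes. *Plxnb3*, which entered the test through its KO values alone, is in these counts and in those that follow. Of the 27 members whose mean reached 1 FPKM in both groups, 19 were higher in KO, and their median log2 fold change was 0.47. In 24 of 28 members the highest of the 6 values was in a KO library, as it was in 47.7% of all genes. KO 2 held the highest value of 15 members, where it held the highest of 15.01% of all genes, and WT 2 held that of 0 members, where it held 25.6% of all genes. The standard error of a log2 fold change had a median of 0.50 among members, beside 0.41 among all genes. With KO 0 left out, the groups did not overlap for 14 of 28 members, all higher in KO, against 14.7% of all genes in that direction. With WT 2 or WT 1 left out the number was 8, also all higher, against 12.8% and 15.3%. Without WT 0 it was 5, of which 4 were higher (against 13.4%) and 1 lower, and without KO 2 it was 7, of which 5 were higher (against 13.2%) and 2 lower. Without KO 1 it was 4, all higher, against 12.7%. Non-overlap is easier to reach with 2 libraries against 3. The members called stayed at 0 without any one library.

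**Figure D2:**
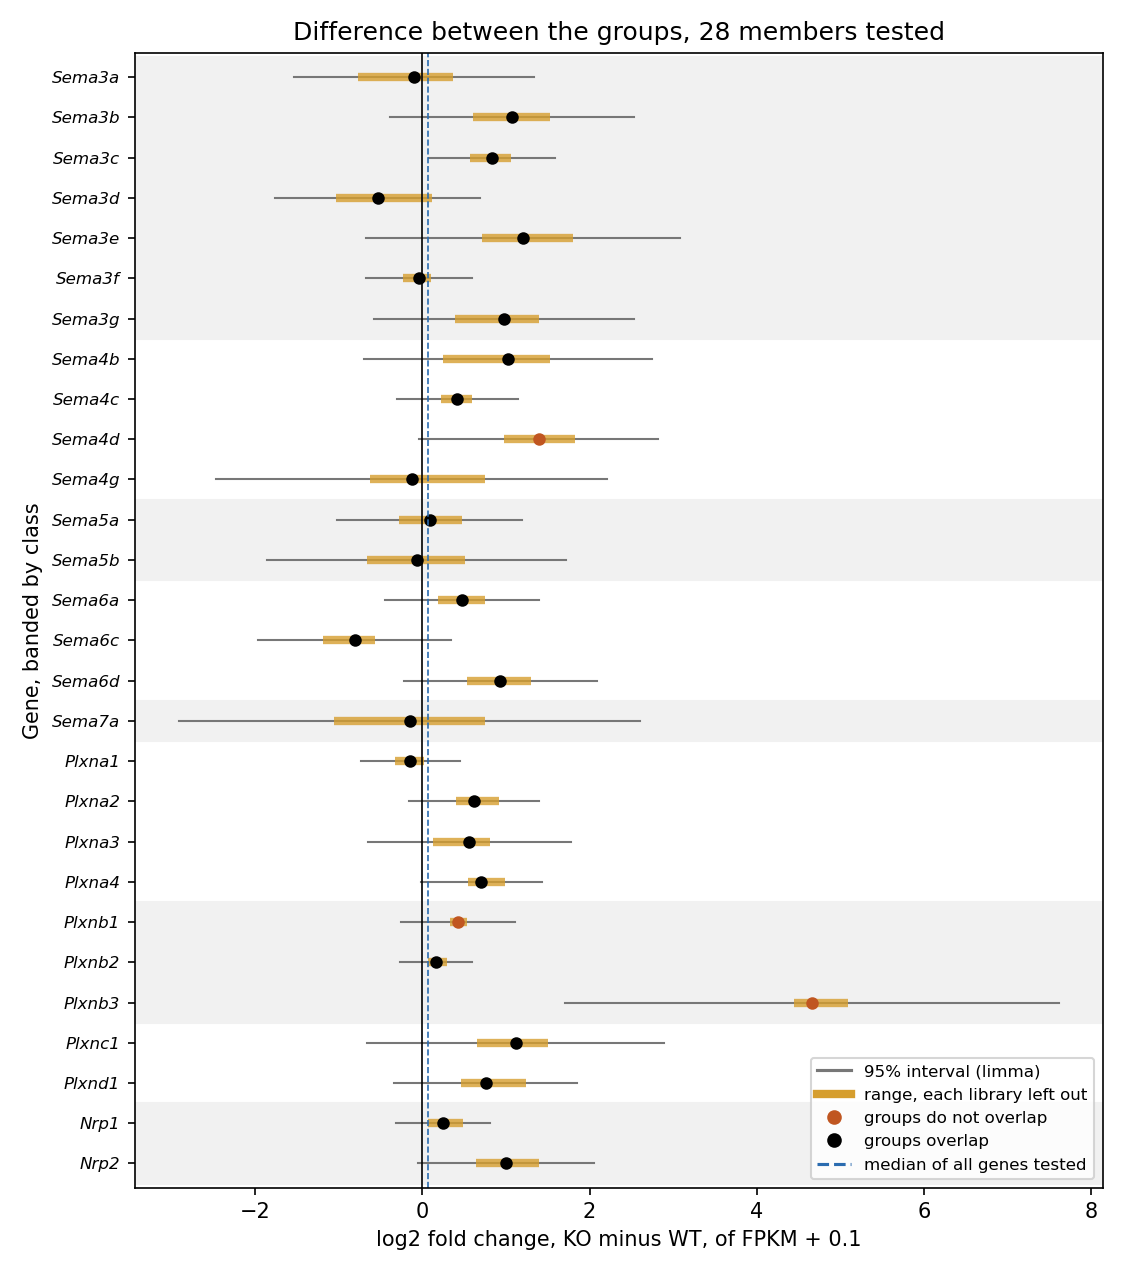
Log2 fold change of FPKM + 0.1, KO minus WT, for the 28 members tested, with the 95% interval from limma (grey) and the range when each library is left out in turn (yellow). The intervals of *Sema3c* and *Plxnb3* exclude 0 before adjustment, the orange points are the 3 members without overlap, and the dashed line is the median of all genes, 0.07.

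The start site regions of 4 genes are shown, because the groups of *Sema4d*, *Plxnb1* and *Plxnb3* did not overlap and *Sema3c* is the leading ligand. Each has 250 bases before and 50 bases from the RefSeq start on GRCm38.p6, written 5′ to 3′. Capitals mark matches on either strand to the GC box GGGCGG, the AP-2 site GCCNNNGGC, the Sox site AACAAT, the TATA box TATAAA and the CArG box, which SRF binds in SMC genes. Matches can overlap.
Sema3c (chr5:17574566-17574865, plus strand): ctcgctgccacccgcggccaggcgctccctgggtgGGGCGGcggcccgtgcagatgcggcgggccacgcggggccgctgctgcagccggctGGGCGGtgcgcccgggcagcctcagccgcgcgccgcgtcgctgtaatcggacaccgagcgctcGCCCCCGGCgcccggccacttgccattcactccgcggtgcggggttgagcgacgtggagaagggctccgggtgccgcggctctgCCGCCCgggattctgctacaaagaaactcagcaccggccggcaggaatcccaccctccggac
Sema4d (chr13:51748761-51749060, minus strand): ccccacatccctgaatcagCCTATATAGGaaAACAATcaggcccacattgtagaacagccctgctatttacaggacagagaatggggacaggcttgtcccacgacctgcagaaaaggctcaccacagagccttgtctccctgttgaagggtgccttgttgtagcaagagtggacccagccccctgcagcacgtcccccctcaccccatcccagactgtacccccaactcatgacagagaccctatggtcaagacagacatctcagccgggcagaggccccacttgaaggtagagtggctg
Plxnb1 (chr9:109095186-109095485, plus strand): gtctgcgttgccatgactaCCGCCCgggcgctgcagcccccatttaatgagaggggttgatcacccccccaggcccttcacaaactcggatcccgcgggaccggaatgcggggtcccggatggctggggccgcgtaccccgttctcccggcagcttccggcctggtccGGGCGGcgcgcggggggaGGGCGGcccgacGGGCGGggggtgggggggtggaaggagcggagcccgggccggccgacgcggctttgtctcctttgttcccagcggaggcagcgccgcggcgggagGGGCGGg
Plxnb3 (chrX:73756853-73757152, plus strand): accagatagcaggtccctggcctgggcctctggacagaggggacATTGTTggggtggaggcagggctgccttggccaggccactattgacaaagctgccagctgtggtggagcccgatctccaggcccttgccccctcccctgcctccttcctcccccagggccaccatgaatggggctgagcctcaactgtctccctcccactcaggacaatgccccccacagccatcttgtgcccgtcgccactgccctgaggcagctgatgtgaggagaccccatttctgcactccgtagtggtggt
Of the 31 members, 26 had such regions, 37 in all. The GC box was in 27 of these 37 regions (73.0%), against 35.7% of 32851 regions of all genes. The AP-2 site was in 9 (24.3% against 16.6%), the Sox site in 2 (5.41% against 10.7%), the CArG box in 1 (2.70% against 1.63%) and the TATA box in 0 (against 13.6%). *Sema3c* had 3 GC boxes and 1 AP-2 site, and *Plxnb1* had 5 GC boxes. *Plxnb3* had 1 Sox site, and the region shown for *Sema4d*, 1 of 3 annotated for that gene, had 1 CArG box and 1 Sox site. The regions of *Sema4d* not shown had no CArG box and no Sox site, and 1 of them had 1 GC box. The CArG box shown was thus the only one in the 37 regions of members, and it was not shared by the other start sites of its gene. A match is only a stretch of letters, and binding of any factor was not measured here.

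Class 3 semaphorins, the secreted ligands, made up the largest part of the semaphorin transcripts. *Sema3c* (chromosome 5 of GRCm38, 17574281 to 17730268) had an FPKM of 67.4, 42.3 and 82.2 in WT 0, WT 1 and WT 2 and of 161, 103 and 80.4 in KO 0, KO 1 and KO 2. KO 0 and KO 1 lay above all WT libraries, and KO 2 lay just below WT 2, so the groups overlapped. The mean was 64.0 ± 20.2 (SD, n = 3) in WT and 115 ± 41.3 (SD, n = 3) in KO. The log2 fold change was 0.84 (standard error, SE, 0.32, 95% interval 0.08 to 1.59, adjusted p = 0.589 and unadjusted p = 0.0342 by limma). It lay between 0.56 and 1.06 with each library left out in turn. KO 0, with both *Xist* and *Ddx3y*, had the highest value.

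*Sema3d*, a second class 3 ligand, had an FPKM of 26.6, 28.7 and 37.0 in WT and of 8.498, 25.6 and 42.1 in KO. Here KO 0 was the lowest of the 6 libraries and KO 2 the highest, so the direction rested on KO 0. Its log2 fold change was -0.54 (SE 0.53, adjusted p = 0.757 from limma), and 0.11 without KO 0. The ratio of *Sema3c* to *Sema3d* was 2.54, 1.47 and 2.22 in WT and 18.9, 4.04 and 1.91 in KO. A ratio within a library does not depend on how the libraries were scaled. KO 0 and KO 1 were beyond the WT range and KO 2 was inside it.

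The other class 3 members had lower levels. *Sema3f*, which signals mainly through neuropilin 2, was at 19.0, 11.8 and 16.8 FPKM in WT and at 15.4, 18.1 and 12.5 in KO, with a log2 fold change of -0.04 (95% interval -0.68 to 0.60). *Sema3a*, a repellent of sympathetic and sensory axons that binds neuropilin 1, was at 5.38, 11.8 and 10.9 FPKM in WT and at 4.25, 6.27 and 20.8 in KO, where KO 0 was the lowest library and KO 2 the highest. *Sema3e*, which binds plexin D1 without a neuropilin, was at 0.999, 0.972 and 1.34 FPKM in WT and at 5.35, 1.10 and 3.07 in KO. Its KO 0 and KO 2 values lay above all WT libraries, and the log2 fold change was 1.21 with a SE of 0.81. *Sema3b* and *Sema3g* had log2 fold changes of 1.07 (SE 0.63) and 0.97 (SE 0.67), with groups that overlapped. These became 0.60 for *Sema3b* without WT 0 and 0.39 for *Sema3g* without WT 1.

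Summed over the 7 genes, class 3 semaphorins came to 125, 99.8 and 159 FPKM in WT and to 201, 169 and 176 FPKM in KO. The sum over all 20 semaphorins was 169, 192 and 219 FPKM in WT and 255, 255 and 297 in KO. For both sums each KO library was above each WT library, and no test was made on a sum over members. This depended on the scale, since total FPKM ran from 412183 in WT 1 to 818503 in KO 2, and the 10 highest genes of a library held from 12.8% (WT 2) to 57.8% (KO 2) of it. As a percentage of all FPKM in the library, the 20 semaphorins came to 0.0303, 0.0465 and 0.0529 in WT and to 0.0581, 0.0442 and 0.0363 in KO, which overlapped. All 31 members came to 0.0675, 0.112 and 0.108% in WT and to 0.111, 0.102 and 0.0808% in KO, which also overlapped. *Sema3c* made up 63.02% of semaphorin FPKM in KO 0, 40.5% in KO 1 and 27.0% in KO 2, against 40.0%, 22.1% and 37.5% in WT 0, WT 1 and WT 2.

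**Figure D3:**
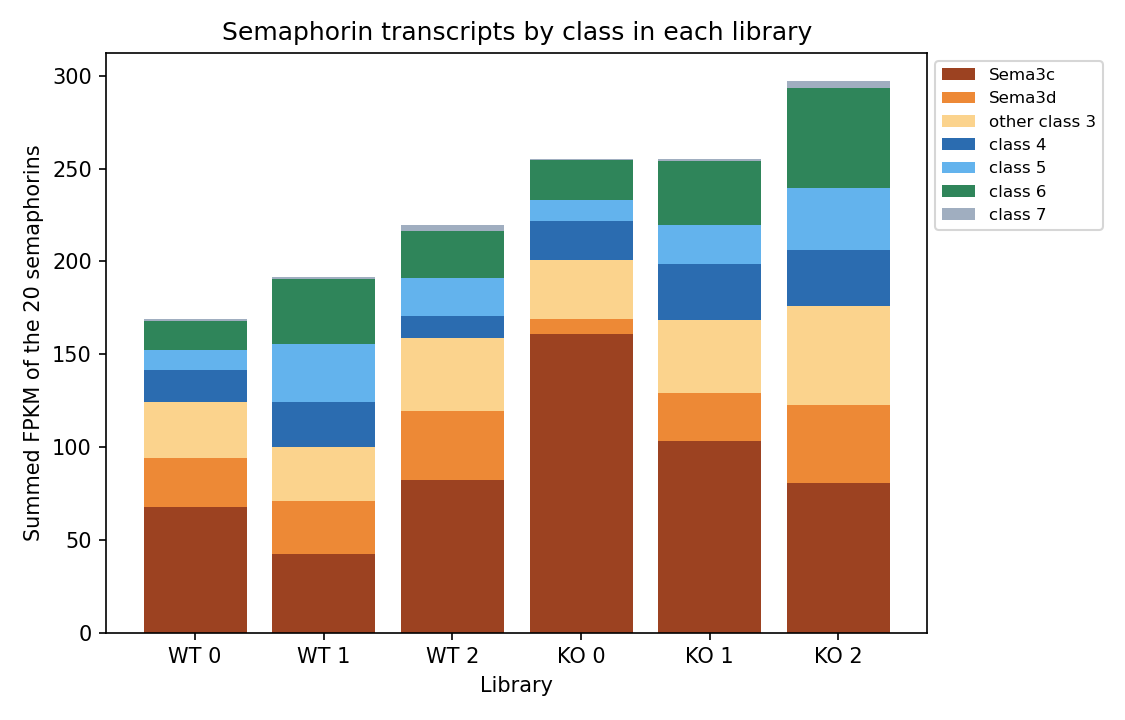
Summed FPKM of the 20 semaphorins in each library (bars from 0), divided into *Sema3c*, *Sema3d*, the other class 3 genes and classes 4 to 7. The 3 KO bars end at 255, 255 and 297 FPKM and the 3 WT bars at 169, 192 and 219, and *Sema3c* fills 63.02% of the bar in KO 0 but 27.0% in KO 2.

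Among the membrane-bound class 4 semaphorins, *Sema4d* encodes CD100, a ligand of plexin B1 that was first known from lymphocytes. *Sema4d* (chromosome 13, 51685529 to 51793747) had an FPKM of 1.81, 3.47 and 0.9998 in WT and of 3.58, 6.37 and 5.57 in KO. The groups did not overlap, although the gap between WT 1 and KO 0 was small (p = 0.1 in a two-sided exact permutation test, below which 3 libraries against 3 cannot go). The log2 fold change was 1.39 (SE 0.61, adjusted p = 0.604 and unadjusted p = 0.0549 by limma), and from 0.98 to 1.83 with each library left out.

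*Sema4c*, a ligand of plexin B2, was the highest of class 4, at 10.5, 13.0 and 7.75 FPKM in WT and 10.9, 17.8 and 13.0 in KO, and 7.27% of its exonic bases are shared with *D430040D24Rik* on the opposite strand. *Sema4b* was at 3.41, 4.77 and 0.715 FPKM in WT and 3.82, 4.66 and 6.15 in KO, so that WT 2 alone stood apart. Its log2 fold change of 1.02 became 0.24 without WT 2. *Sema4g* overlapped widely (log2 fold change -0.13, SE 1.01). *Sema4a* was at 0.566, 0.925 and 0 FPKM in WT and at 0, 0.572 and 1.96 in KO, and *Sema4f* did not exceed 0.386 FPKM.

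The class 5 semaphorins, membrane proteins with thrombospondin repeats, had similar ranges in both groups. *Sema5a*, for which plexin B3 is a receptor, was at 9.32, 25.9 and 15.6 FPKM in WT and at 9.73, 17.3 and 26.9 in KO. *Sema5b* was at 1.45, 5.70 and 4.95 FPKM in WT and at 1.44, 3.65 and 6.76 in KO. For both genes the 2 libraries numbered 0 were the lowest of the 6. The log2 fold changes were 0.09 (95% interval -1.02 to 1.19) and -0.07 (95% interval -1.86 to 1.72).

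Class 6 semaphorins are membrane-bound ligands of A plexins. *Sema6d*, a ligand of plexin A1 with a part in heart tube formation, was the highest of the class. Its FPKM was 5.597, 15.6 and 10.8 in WT and 11.2, 17.9 and 33.1 in KO. KO 1 and KO 2 lay above all WT libraries, and KO 0 lay between WT 2 and WT 1. The log2 fold change was 0.93 (SE 0.50, adjusted p = 0.647 and unadjusted p = 0.0990 by limma), and it ranged from 0.53 to 1.30 over the fits that left out 1 library. *Sema6a*, a ligand of plexins A2 and A4, was at 5.42, 11.6 and 8.502 FPKM in WT and 7.59, 13.4 and 14.2 in KO (log2 fold change 0.47, SE 0.40).

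*Sema6c* was the one member whose log2 fold change was negative in every fit that left out a library. It was at 4.41, 6.64 and 6.25 FPKM in WT and at 2.60, 2.27 and 5.48 in KO, with KO 2 inside the WT range (log2 fold change -0.81, SE 0.50, adjusted p = 0.672 from limma, range -1.19 to -0.57). *Sema6b* was at 0, 1.10 and 0 FPKM in WT and at 0.320, 1.11 and 0.833 in KO. *Sema7a*, the lipid-anchored semaphorin that binds plexin C1 and integrins, was at 0.763, 0.832 and 2.88 FPKM in WT and 0.245, 1.10 and 4.10 in KO, with the lowest and the highest value both in KO libraries.

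The plexins are the receptors that carry the signal across the membrane. Among the B plexins, *Plxnb3* (chromosome X, 73757090 to 73772514), a receptor gene known mainly from the nervous system, had the lowest p of the members. It was listed at 0 in WT 0 and WT 2 and was at 0.147 FPKM in WT 1, and it was at 2.15, 4.01 and 4.24 FPKM in KO. No WT value reached a KO value (p = 0.1 in a two-sided exact permutation test, the smallest possible). Since its mean reached 1 FPKM in KO only, it had to differ to enter the test. It had a log2 fold change of 4.66 (SE 1.27, adjusted p = 0.500 and unadjusted p = 0.00680 by limma). Its size depends on the constant added before the log, and was 2.06 with 1 FPKM and 7.05 with 0.01 FPKM. *Plxnb3* is X-linked. *Xist* was at 67.0, 0.053 and 0.043 FPKM in WT and at 81.0, 82.8 and 0.047 in KO, and the part of the sex of the embryos in the *Plxnb3* values was not tested. The *Plxnb3* levels in KO had the order of the Schwann cell marker sums (60.5, 144 and 214 FPKM). Those in WT did not, since *Plxnb3* was at 0 in WT 2, where the Schwann cell marker sum was the highest of WT (53.5 FPKM). The part of these cells in the *Plxnb3* result was not tested.

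*Plxnb1* (chromosome 9, 109095389 to 109119917), the receptor gene for semaphorin 4D, was at 6.39, 8.08 and 6.43 FPKM in WT and at 8.67, 10.7 and 8.78 in KO. Each KO value was above each WT value (p = 0.1 in a two-sided exact permutation test), with the nearest values in WT 1 and KO 0. The mean was 6.96 ± 0.966 (SD, n = 3) in WT and 9.37 ± 1.12 (SD, n = 3) in KO, with a log2 fold change of 0.43 (SE 0.29, adjusted p = 0.696 and unadjusted p = 0.188 by limma). It lay between 0.33 and 0.54 with each library left out. Of its exonic bases, 2.68% are shared with an antisense gene, *Gm7628*, and whether the libraries kept the strand is not given in the sources used here.

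*Plxnb2*, which is widely expressed, had the narrowest interval of the members. It was at 47.9, 65.9 and 51.5 FPKM in WT and at 53.9, 65.5 and 63.9 FPKM in KO, with a log2 fold change of 0.16 (SE 0.19, 95% interval -0.27 to 0.59). Its standard error was the lowest of the 28 members, so that a log2 change above 0.59 lies outside its interval.

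The A plexins are the partners of neuropilins for class 3 ligands and bind class 6 ligands on their own. *Plxna1* was at 22.4, 18.6 and 14.0 FPKM in WT and at 13.9, 16.6 and 18.6 in KO, with a log2 fold change of -0.14 (SE 0.26), and 10.7% of its exonic bases are shared with the antisense gene *Gm26811*. *Plxna2* was at 14.5, 9.07 and 13.7 FPKM in WT and at 23.3, 22.9 and 12.3 in KO, so that KO 0 and KO 1 lay above all WT libraries and KO 2 did not (log2 fold change 0.62, SE 0.34, adjusted p = 0.649 from limma). *Plxna4* was at 9.46, 8.97 and 16.5 FPKM in WT and at 14.9, 21.0 and 19.5 in KO, with KO 0 below WT 2 (log2 fold change 0.70, SE 0.31, unadjusted p = 0.0544, adjusted p = 0.602 from limma). *Plxna3*, also X-linked, was at 4.49, 4.13 and 1.70 FPKM in WT and at 4.15, 4.65 and 5.44 in KO. The 4 genes together came to 50.9, 40.8 and 45.9 FPKM in WT and 56.3, 65.2 and 55.9 in KO, a sum that did not overlap between the groups and was not tested. As a percentage of all FPKM the sum did overlap, at 0.00914, 0.00989 and 0.0111 in WT and 0.0128, 0.0113 and 0.00683 in KO, with KO 2 the lowest.

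*Plxnd1* (chromosome 6, 115954811 to 115995005), the receptor gene for semaphorin 3E and, with neuropilins, for semaphorin 3C, is best known from endothelial cells. It was at 11.7, 27.7 and 17.1 FPKM in WT and at 15.4, 38.7 and 45.1 in KO. KO 1 and KO 2 lay above all WT libraries, whereas KO 0 lay below WT 2, and KO 0 had the highest level of the ligand gene *Sema3c*. Its log2 fold change was 0.75 (SE 0.47, adjusted p = 0.677 from limma) and was 1.23 without KO 0. Endothelial markers summed to 491, 415 and 618 FPKM in WT and to 518, 774 and 677 in KO, with 8 of 12 higher and 0 of 12 at 0. For 3 of 12, all higher in KO, the groups did not overlap, against 8.21% of all genes in that direction. The part of endothelial cells in the *Plxnd1* values was not tested. *Plxnc1*, the receptor gene for semaphorin 7A, was at 0.605, 2.21 and 1.39 FPKM in WT and at 1.68, 3.96 and 3.30 in KO (log2 fold change 1.11, SE 0.77).

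Neuropilins hold the class 3 ligands and are also receptors for growth factors of the VEGF family. *Nrp1* (chromosome 8, 128358604 to 128503363) was at 81.9, 109 and 85.7 FPKM in WT and at 77.7, 117 and 139.9 FPKM in KO. The lowest and the highest values were both in KO libraries, and the log2 fold change was 0.25 (SE 0.24, 95% interval -0.32 to 0.81, adjusted p = 0.759 from limma). It was 0.06 without KO 2 and 0.48 without KO 0. *Nrp2* (chromosome 1, 62703285 to 62818695) was at 8.004, 14.9 and 19.7 FPKM in WT and at 15.5, 28.5 and 43.0 FPKM in KO. KO 1 and KO 2 lay above all WT libraries and KO 0 did not. It had a log2 fold change of 0.999 (SE 0.45, adjusted p = 0.611 and unadjusted p = 0.0601 by limma), and from 0.64 to 1.39 with each library left out. The ratio of *Nrp1* to *Nrp2* was 10.2, 7.26 and 4.35 in WT and 5.003, 4.09 and 3.25 in KO. KO 1 and KO 2 were below all WT libraries and KO 0 was above WT 2.

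**Figure D4:**
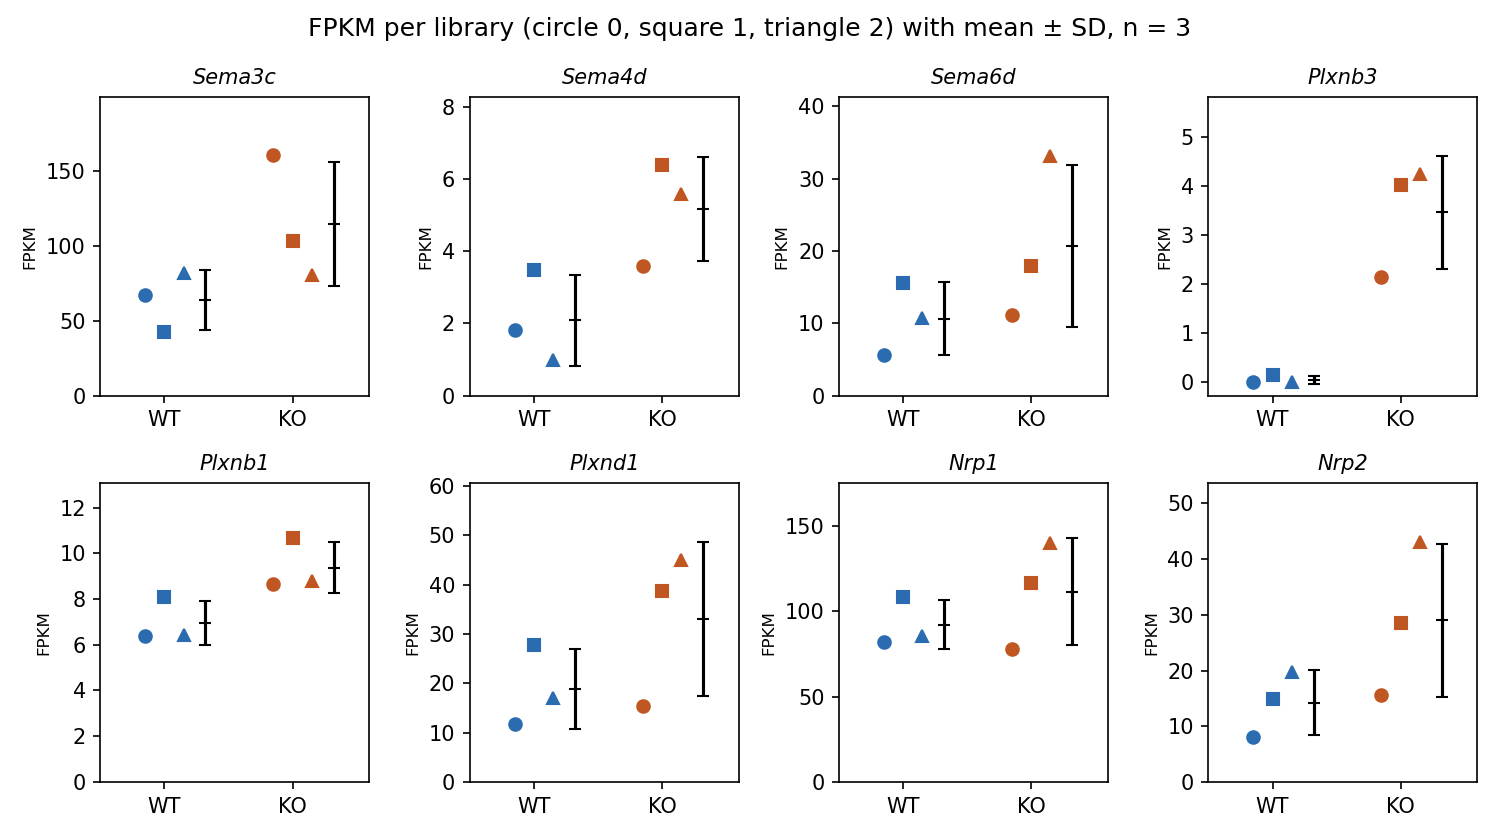
FPKM of 8 members in each library (circle 0, square 1, triangle 2), with the mean and SD of each group beside the points, on linear axes that reach 0. The groups are apart for *Plxnb3*, *Sema4d* and *Plxnb1*, and overlap for *Sema3c*, *Sema6d*, *Plxnd1*, *Nrp1* and *Nrp2*.

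Genes known to work with the members were taken from lists. Of 16 receptor partners, 13 were tested and 0 passed, and 2 of them reached an unadjusted p under 0.05, both higher in KO, against 3.31% of all genes. Both are adhesion molecules that join neuropilins on axons. *L1cam* was at 0.565, 0.918 and 0 FPKM in WT and at 4.24, 5.33 and 8.38 in KO (log2 fold change 3.84, SE 1.06, adjusted p = 0.502 from limma). The mean of *L1cam* reached 1 FPKM in KO only, so it too entered the test through the group where it was higher. *Chl1* was at 1.33, 0.517 and 1.98 FPKM in WT and at 2.29, 6.11 and 6.66 in KO (log2 fold change 1.92, SE 0.76, adjusted p = 0.591 from limma). For both, the groups did not overlap, against 8.21% of all genes that were higher without overlap. The KO values of both had the order of the Schwann cell and neuron marker sums. In WT, *L1cam* had the order of neither, and was at 0 in WT 2, where these sums were the highest of WT (53.5 and 41.4 FPKM). *Chl1* in WT had the order of the neuron but not of the Schwann cell marker sums. The part of these cells was not tested. *Kdr*, the VEGF receptor that binds with neuropilin 1, was at 6.01, 19.7 and 9.13 FPKM in WT and at 6.22, 26.6 and 49.99 in KO, with overlap.

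Of the 5 growth factor genes whose products bind neuropilins or their partners, 0 passed. *Vegfb*, a ligand of neuropilin 1, was at 17.8, 24.1 and 30.7 FPKM in WT and at 4.33, 10.5 and 14.0 in KO, without overlap (log2 fold change -1.45, SE 0.45, unadjusted p = 0.0131, adjusted p = 0.540 from limma). *Vegfa*, at 26.0, 22.5 and 41.5 FPKM in WT and 15.8, 37.8 and 31.0 in KO, overlapped. *Hgf* was at 1.43, 2.69 and 0 FPKM in WT and at 3.15, 4.94 and 5.34 in KO, without overlap (log2 fold change 2.57, SE 1.26, unadjusted p = 0.0781, adjusted p = 0.624 from limma). Of the 5 genes, 1 was thus higher and 1 lower without overlap, against 8.21% and 7.84% of all genes.

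Inside the cell, plexins act through GTPases, collapsin response mediators and the MICAL enzymes, which oxidize actin. Of 34 such effector genes, 33 were tested and 0 passed, with 15 higher and 18 lower in KO and a median log2 fold change of -0.13, which was -0.0070 without KO 0 and -0.028 without WT 2. *Mical2* was at 118, 101 and 85.2 FPKM in WT and at 71.1, 62.1 and 56.7 in KO, without overlap (log2 fold change -0.67, SE 0.18, unadjusted p = 0.00671, adjusted p = 0.500 from limma). Its libraries had the same order as the SMC marker sums, from WT 0 at 6182 FPKM to KO 2 at 991 FPKM, and the part of the SMC content was not tested. *Mras*, a small GTPase, was also lower in each KO library, and *Gipc1*, which binds the tail of neuropilin 1, and *Rap1b*, a GTPase that plexins inactivate, were higher in each. The groups thus did not overlap for 2 of the 33 that were higher and 2 that were lower. Among all genes these shares were 8.21% and 7.84%. *Gipc1* was at 14.6, 17.2 and 15.7 FPKM in WT and at 20.9, 23.3 and 19.0 in KO (log2 fold change 0.41, SE 0.21, adjusted p = 0.632 from limma).

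The other guidance families, which are slits, netrins and ephrins with their receptors, were also listed. Of 39 genes 31 were tested and 0 passed, 20 were higher and 11 lower in KO, and the median log2 fold change was 0.31. This median was 0.017 with quantile normalization and 0.063 without WT 2. The groups did not overlap for 6 genes that were higher in KO (*Slit2*, *Robo2*, *Unc5c*, *Efnb3*, *Epha3* and *Epha5*) and 2 that were lower (*Slit3* and *Ephb6*), against 8.21% and 7.84% of all genes. *Epha5* had a mean of 0.127 FPKM in WT and 2.81 in KO. It thus entered the test through the group where it was higher, and its place in this count follows in part from the filter. The ephrin receptor gene *Epha3* was at 102, 110 and 77.6 FPKM in WT and at 174, 151 and 149.8 in KO (log2 fold change 0.72, SE 0.18, adjusted p = 0.463 from limma).

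**Figure D5:**
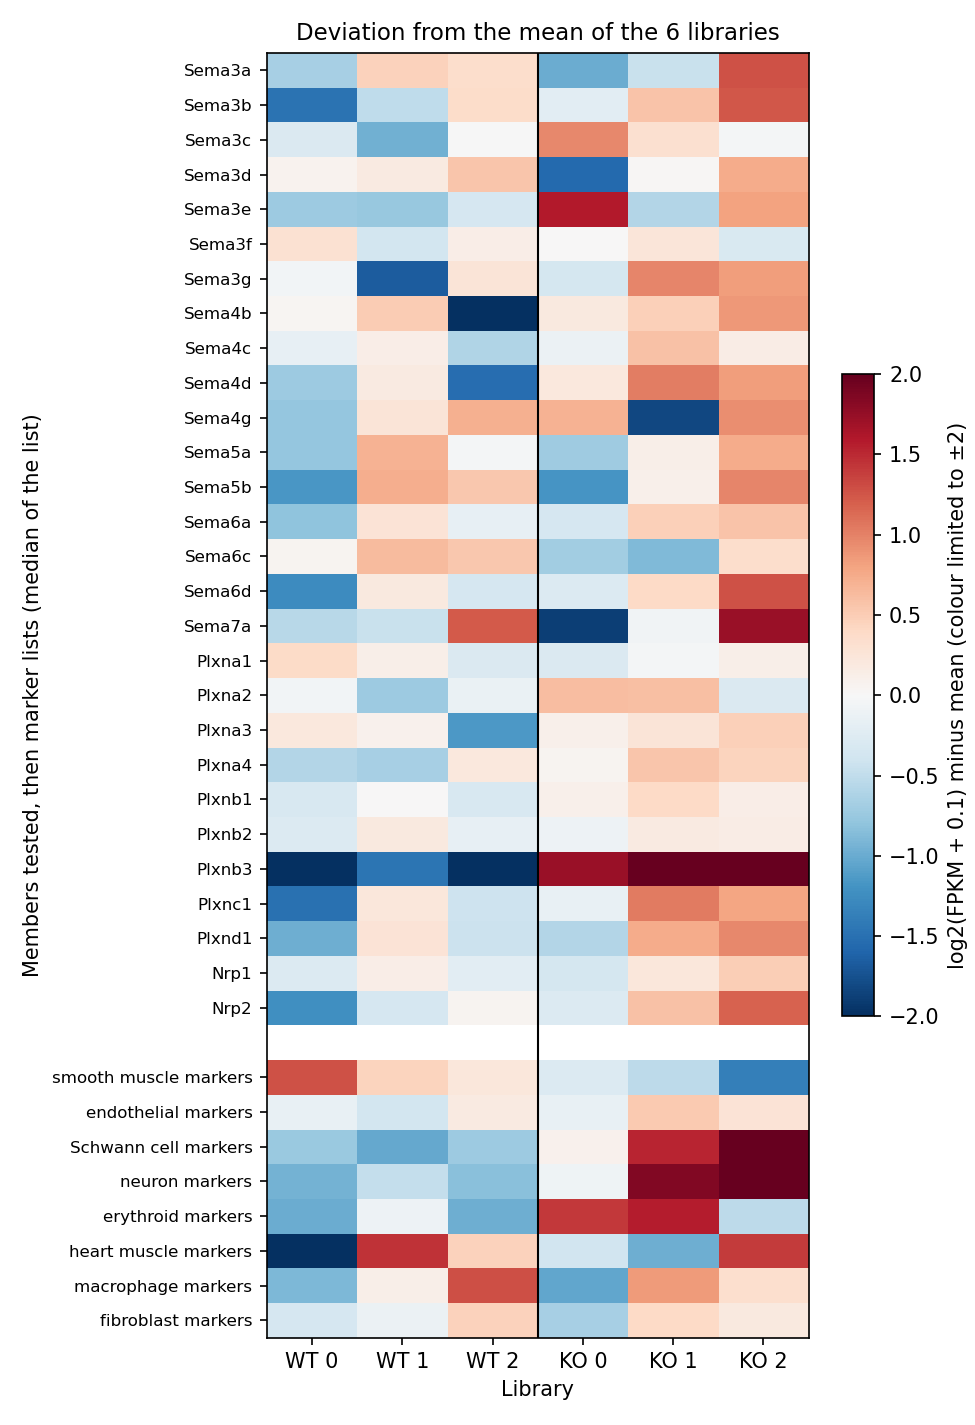
Deviation of log2(FPKM + 0.1) from the mean of the 6 libraries for the 28 members tested (upper rows) and the median deviation of 8 marker lists (lower rows), with WT libraries to the left of the line and KO libraries to the right. The KO 2 column is highest for 15 of the members and has the highest Schwann cell and lowest SMC marker medians. The heart muscle marker median is highest in WT 1 (1.45), followed by KO 2 (1.41). The summed FPKM of the heart muscle markers, not drawn here, is highest in KO 2 at 1622.5, followed by 1496 in WT 1, with 160 to 720 in the rest. KO 0 has the highest *Sema3c* and the lowest *Sema3d* of the 6 libraries.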

How the data were processed

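Bulk RNA-Seq of DA at E17.5 was available as 1 table for 3 WT and 3 KO libraries, grouped by the sample titles. Per the labels and the study's methods, the authors filtered reads by quality and length, mapped these with TopHat2 on mm10 and quantified genes with Cufflinks, and later used Cuffdiff and R. The deposited values are FPKM. Which of these programs wrote them, their versions, the annotation and the scaling between libraries are not given in the sources used here. FPKM values hold no counts, so depth is unknown, no counting interval could be given and no count test was used. Cuffdiff, which needs the reads, was not repeated. Genes whose mean reached 1 FPKM were tested on log2(FPKM + 0.1) with limma 3.58.1 in R 4.3.3 (lmFit, then eBayes with trend, two-sided), adjusted by Benjamini-Hochberg over all 12955 genes, with a threshold of 0.05. The fit was checked on simulated data. Positions, GC content and transcript length were taken from GENCODE vM21 (GRCm38), in which all 31 members were found, and start site regions came from RefSeq.

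The members and lists were chosen with earlier results of these data known. By the rule for named genes, each member may be named, and values per library were due for the 2 of highest mean in each class, for members with an unadjusted p under 0.05, without overlap or at 0 in a library, and for *Sema3c*, *Sema6d*, *Plxnd1*, *Nrp1* and *Nrp2*. Values per library of further members were added after they had been seen. Genes of the pathway lists are named where their groups do not overlap or a member is their partner. Alternatives covered the pseudocount, filter, scaling, variance model, replicate block, length and GC correction, and the omission of libraries. A fit that omits WT 1 and KO 2, the pair with most heart muscle marker FPKM, and the fit without moderation were chosen after the data were seen. The values of 1 marker gene are not reported here.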

Additional observations from a re-analysis of the deposited data

How the results depend on the processing

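The number of members with an adjusted p under 0.05 in limma was 0 in the reported setting and in all 19 alternatives, and the lowest adjusted p of any member in these was 0.164, for *Plxnb3* without the mean-variance trend. Of the 28 members tested, 20 kept their direction in each alternative in which they were tested. The median log2 fold change of the members, 0.51, was 0.40 to 0.61 when 1 library was omitted. The direction of *Sema3f* and *Sema5b* turned when length and GC were corrected for (0.031 and 0.011, the same with the replicate block added), and that of *Sema4g* and *Sema7a* with a pseudocount of 1 (0.014 and 0.030). *Itgb1* turned with quantile normalization (0.17). When 1 library was omitted, log2 fold changes lay at -0.33 to 0.013 for *Plxna1*, -0.77 to 0.36 for *Sema3a*, -1.04 to 0.11 for *Sema3d*, -0.24 to 0.10 for *Sema3f*, -0.63 to 0.75 for *Sema4g*, -0.28 to 0.47 for *Sema5a*, -0.67 to 0.51 for *Sema5b*, -1.06 to 0.75 for *Sema7a*, -0.32 to 0.058 for *Flt1*, -0.11 to 0.051 for *Itgb1*, -0.38 to 0.24 for *Vegfa* and -0.45 to 0.32 for *Vegfc*.

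The number of members with an unadjusted p under 0.05, 2, became 1 under a minimum mean of 5 FPKM (17 members tested), 3 with a pseudocount of 1 and with the length and GC correction, and 4 with quantile normalization. Omitting 1 library gave 1 to 5 (5 without WT 2 or without KO 0, 1 without WT 0 or without KO 1). The number without overlap, 3, became 1 under the minimum of 5 FPKM and 12 (10 higher, 2 lower) without WT 1 and KO 2, which leaves 2 libraries against 2, and was 4 to 14 when 1 library was omitted (14 without KO 0). The count over all genes, 1, became 2 without the trend, without moderation and without WT 1 and KO 2, and 0 when length and GC were corrected for (also 0 with the replicate block added), and was 1 to 2 when 1 library was omitted. The cause of these shifts was not tested. With the replicate block alone, 5 members had an unadjusted p under 0.05, and with the length and GC correction and the replicate block also 5. The labels share only the numbers 0, 1 and 2. Same-numbered libraries had deviations from their group means that correlated at 0.12, -0.08 and -0.01, and KO 1 and KO 2 correlated best with WT libraries of another number. With depth unknown, the precision of the low members cannot be set from counts, and the interval of a log2 fold change reached from -2.92 to 2.61 for *Sema7a*.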
